A study of Mus musculus with 6 samples.

Results

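The ATAC-seq peaks of mouse chromosome 1 (chr1, GRCm38) were described along the length of the chromosome in 6 libraries of adult neural stem cell cultures. All peaks on the assembled chr1 were taken, 42102 of the 427043 autosomal peaks in the 6 lists. PROLIF replicates 1, 2 and 4 held 7423, 7025 and 5680 of them, and DIFF replicates 1, 2 and 4 held 6154, 6784 and 9036. Chr1 was chosen because it holds more peaks than its start sites would give, so its level against the other autosomes is a description and carries no test.

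The cultures came from the subependymal zone (SEZ) of mice labelled as 10 weeks old, and every library was Srr2 del/del, that is, it lacked the Sox2 enhancer Srr2 through CRISPR-Cas9 editing. The mice were kept on a C57BL/6J background. PROLIF cells had 2 days in vitro (2 DIV) with FGF, and DIFF cells had those 2 days followed by 1 day without mitogens and with serum (2+1 DIV). The series' design text gives 3 DIV for the proliferating cells where the labels give 2, and a label names RNA although the libraries are genomic DNA. The study made its deletion in more than a single founder line, and the labels do not say which line each library came from. Wild-type libraries were not analysed here. P-values measure the spread between these libraries, and the labels do not say which animals the cultures came from.

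ATAC-seq marks DNA that a transposase can reach, and a peak is a stretch where tagged fragments pile up above the local background of the same library. Such open stretches are promoters at the start sites of genes and, farther away, enhancers and insulator sites, so a chromosome with more genes usually has more of them. Mouse chr1 is the longest autosome of the mouse and is poor in start sites for its length. It carries neural regulators such as Gli2, En1 and Prox1, and it also has long stretches with few genes.

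The lists differed in length and depth. They held 58188 to 85593 autosomal peaks, and the background pileup, the number of fragments expected at a peak from the library as a whole, lay between 2.85 and 3.63 in 5 libraries and was 6.01 in DIFF replicate 4. Promoter peaks of Sox2, Nes, Olig2, Egfr and Fabp7, genes of neural stem and progenitor cells, were found in all 6 libraries. Of 7 genes of other lineages, Ptprc, Cx3cr1, Cdh5 and Sox10 had none in any library, Aif1 had one in 5 libraries, Pecam1 in the 3 PROLIF libraries and Mog in 1.

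The strongest region of chr1 in all 6 libraries is shown first, because most of its sequence also stands in the mitochondrial genome. Peaks of the 6 lists were merged into regions where they overlapped, and sequences are centred on the summit on the plus strand of GRCm38, read from the reference genome.

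Region at chr1:24611609-24616185, outside protein-coding genes, 27238 bp from the start of Col19a1: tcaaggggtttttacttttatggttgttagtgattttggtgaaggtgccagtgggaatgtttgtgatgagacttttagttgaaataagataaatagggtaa

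This region was 4577 bp wide, and 98.8% of its 4547 words of 31 bases also stand in the mitochondrial reference sequence of the same assembly. An annotated transcript start lies in it. It ranked at percentile 99.98 to 99.99 of each list by -log10 p, with a fold enrichment over local background of 2.88 to 3.54. Of the next strongest shared regions, 3 lay at the start of Hjurp, a chaperone of centromeric histone, 306 bp from an annotated transcript start near the end of the chromosome, and at the start of Pcmtd1.

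State-specific regions of high rank are shown next. Capitals mark letters of the searched motifs, AP-1 (TGACTCA or TGAGTCA), a short NFI motif (TTGGCA), E-boxes (CAGCTG or CAGATG), SOX (ACAAAG or ACAATG) and a CTCF core, on either strand, where neighbouring matches may overlap.

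PROLIF-only, intron of Dst, chr1:34184214-34184696: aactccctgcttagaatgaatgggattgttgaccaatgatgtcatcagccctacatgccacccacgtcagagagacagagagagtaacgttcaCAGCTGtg
PROLIF-only, intron of Traf5, chr1:192061564-192062319: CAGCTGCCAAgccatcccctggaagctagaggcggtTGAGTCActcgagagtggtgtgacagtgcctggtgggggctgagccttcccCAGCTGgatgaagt
DIFF-only, intergenic near Hhat, chr1:192789097-192789618: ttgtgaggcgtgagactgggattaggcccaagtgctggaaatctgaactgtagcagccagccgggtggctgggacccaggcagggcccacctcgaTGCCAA

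Dst encodes a cytoskeletal linker and Traf5 an adaptor of TNF receptor signalling. The Dst region had a fold enrichment of 8.54, 8.18 and 8.64 in PROLIF replicates 1, 2 and 4. The Traf5 region had 14.5, 10.3 and 9.13 in the same libraries, and its printed bases hold 1 AP-1 match. Hhat encodes the acyltransferase that adds palmitate to Hedgehog proteins, and the region near it had 9.63, 10.5 and 8.71 in DIFF replicates 1, 2 and 4. These values chose the regions and are given as a description.

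Chr1 held 9.25%, 10.9% and 9.76% of the autosomal peaks in PROLIF replicates 1, 2 and 4 and 8.86%, 9.85% and 10.6% in DIFF replicates 1, 2 and 4. The 95% binomial intervals (Wilson) ran from 9.05% to 9.45% in PROLIF replicate 1 and from 10.6% to 11.1% in PROLIF replicate 2. These intervals cover counting error only. By comparison, chr1 has 6.35% of the 19 autosomes' GENCODE M21 start sites (7992 distinct transcript starts) and 7.94% of their length. Every library thus held a share of chr1 peaks above both.

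Peaks per start site on chr1, relative to the other 18 autosomes together, were 1.50, 1.80 and 1.60 in PROLIF replicates 1, 2 and 4 and 1.43, 1.61 and 1.74 in DIFF replicates 1, 2 and 4 (mean 1.61 ± 0.14, SD, n = 6). Chr1 had the highest mean of the autosomes, and chromosome 18 came next with 1.24 ± 0.025 (n = 6) and a range of 1.20 to 1.28. The ranges of these 2 chromosomes did not overlap. Chr1 also had the largest SD of all autosomes, ahead of chromosome 10 (0.0904) and chromosome 12 (0.0790).

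**Figure D1:**
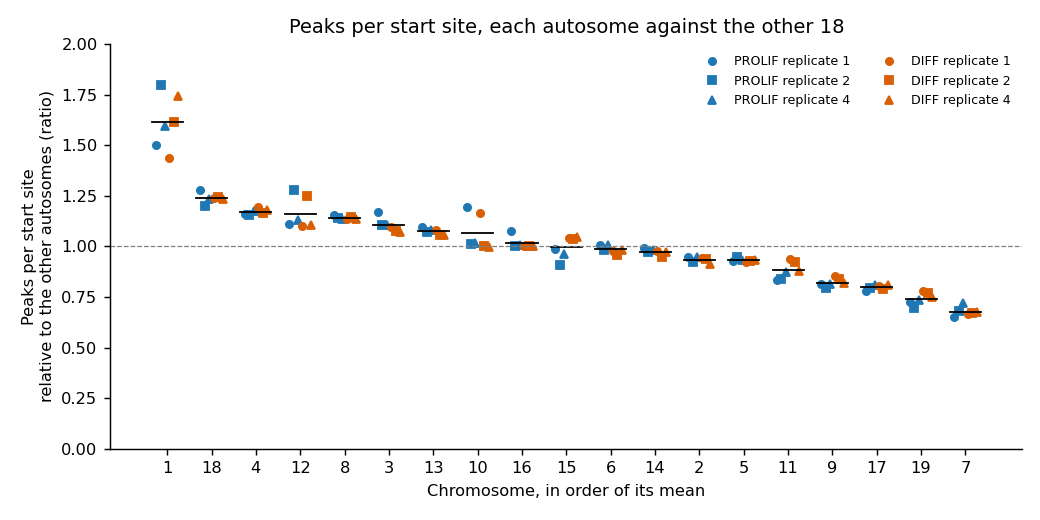
Peaks per start site of each autosome relative to the other 18 (vertical axis, ratio), with 1 point per library and a black line at the mean of the 6 libraries. The 6 points of chromosome 1 lie between 1.43 and 1.80, above every point of the other autosomes, which reach at most 1.28.

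The ratio depends on what a chromosome is measured against. Per Mb of called reference, chr1 held 1.26 ± 0.11 times the peaks of the other autosomes, from 1.12 in DIFF replicate 1 to 1.40 in PROLIF replicate 2. Against a smooth fit of peak density on start site density over the bins of the other autosomes, the value was 1.38 ± 0.12. In each of these measures the order of the libraries was the same at both ends, with DIFF replicate 1 the lowest and PROLIF replicate 2 the highest.

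Peak names carry an input data number, and the libraries split by it into PROLIF replicates 1 and 4 and DIFF replicate 1 with numbers from 227 to 297, and the other three with numbers from 606 to 614. The chr1 ratio was 1.43 to 1.60 at the lower numbers and 1.61 to 1.80 at the higher numbers, without overlap. What these numbers stand for is not given in the sources used here, and their part in the ratio was not tested. Both libraries of replicate 1 had lower numbers, so input number and replicate cannot be fully told apart.

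The excess per start site was broad. Chr1 was divided into 20 bins of 10 Mb, of which the last, bin 20 (chr1:190000001-195471971), is shorter. Of the 20 bins, 19 held more peaks per start site than the other autosomes in all 6 libraries. Over the 225 bins of the other autosomes, 56.4% did so against the same reference. The exception on chr1 was bin 18 (chr1:170000001-180000000), which was at 0.98 per start site in DIFF replicate 1 and at 1.10 to 1.62 elsewhere. Bin means per start site ran from 1.16 to 3.81 with a median of 1.61, beside a median of 1.15 over the bins of the other autosomes. Per Mb, 11 of the 20 bins (55%) were above the other autosomes in all 6 libraries, beside 35.1% of the 225.

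The highest bins per start site were 15 (chr1:140000001-150000000), 13 (chr1:120000001-130000000) and 3 (chr1:20000001-30000000). Bin 15 had 3.80, 5.65 and 3.66 in PROLIF replicates 1, 2 and 4 and 2.40, 2.96 and 4.38 in the DIFF libraries. Bin 13 had 2.08, 3.43 and 3.02 in the PROLIF libraries and 1.99, 2.88 and 3.26 in the DIFF libraries. Bin 3 varied less, from 2.40 to 3.16. These bins are poor in genes, with 132, 247 and 199 start sites, so the same number of peaks gives a higher ratio there. Per Mb, bins 15, 13 and 3 had means of 0.944, 1.28 and 1.00 relative to the other autosomes. The highest bins per Mb were 14, 20 and 9, with 1.91, 1.80 and 1.75.

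The lowest bins per start site were 8 (chr1:70000001-80000000), 7 (chr1:60000001-70000000) and 18, with means of 1.16, 1.26 and 1.30. Bin 8 had 560 start sites and lay between 1.12 and 1.22 in the 6 libraries. Bins 7 and 8 hold Map2, which encodes a dendritic microtubule protein, Creb1, Erbb4 and Epha4, and differed little between libraries (SD 0.050 and 0.034, n = 6).

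**Figure D2:**
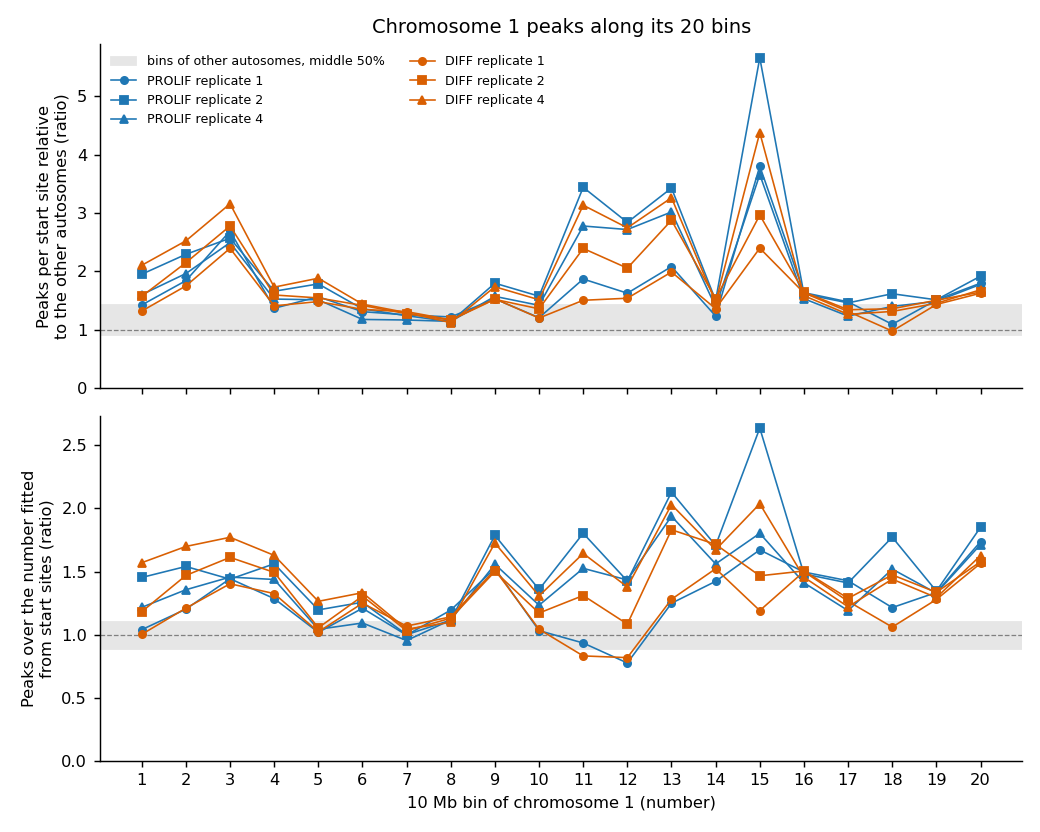
Peaks per start site relative to the other autosomes (upper panel, ratio) and peaks over the number fitted from start site density (lower panel, ratio) in the 20 bins of chromosome 1, 1 line per library; the grey band holds the middle 50% of the bins of the other autosomes. In the upper panel bin 15 reaches 5.65, and in the lower panel bins 11 and 12 fall below 1 in both libraries of replicate 1.

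Measured against the fit on start site density, the peaks of gene-poor bins no longer stood out as far. The bin means then ran from 1.02 in bin 7 to 1.80 in bin 15, and 17 of the 20 bins were above the fit in all 6 libraries, beside 33.3% of the 225 bins of the other autosomes. The exceptions were bins 7, 11 and 12. Bins 9, 13, 14, 15 and 20 had means of 1.60, 1.74, 1.60, 1.80 and 1.68, each above the highest bin of the other autosomes by this fit (1.54). Per Mb no chr1 bin was above the highest bin of the other autosomes (at most 1.91, beside 2.04). Per start site bins 3, 13 and 15 were (2.68, 2.78 and 3.81, beside 2.59).

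**Figure D3:**
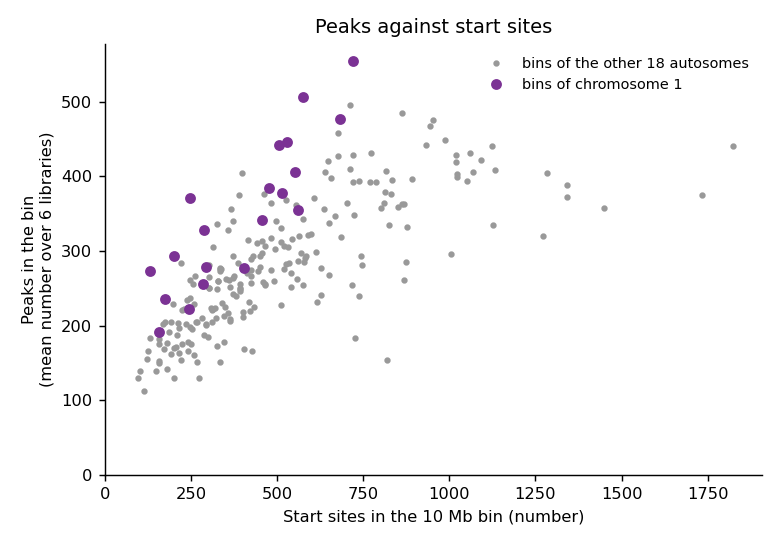
Start sites in each 10 Mb bin (horizontal axis, number) against the peaks in it (vertical axis, mean number over the 6 libraries), for the bins of chromosome 1 (filled points) and of the other 18 autosomes (small points). The bins of chromosome 1 have 132 to 721 start sites, and most lie in the upper part of the cloud.

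Leaving out the highest bins lowered the excess step by step, as leaving out the highest values must. Without the 3 highest bins the ratio was 1.51 on average over the libraries, with a range of 1.37 to 1.65. Without the 10 highest it was 1.38, and the lowest library was at 1.31. These bins were left out after their values were seen. Every chr1 bin mean was above 1 (lowest 1.16), so the mean ratio could not have fallen to 1. The values give the size of what remained and are no test of whether the excess is local.

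Counted per start site, the excess was larger away from start sites. Peaks within 3 kb of a start site were 1.22, 1.30 and 1.21 times as frequent per start site on chr1 as on the other autosomes in PROLIF replicates 1, 2 and 4, and 1.17, 1.25 and 1.28 times in DIFF replicates 1, 2 and 4. Peaks farther than 3 kb were 1.66, 2.11 and 1.87 times as frequent in the PROLIF libraries and 1.59, 1.83 and 1.99 times in the DIFF libraries. The distal value was higher than the promoter value in 6 of 6 libraries. Accordingly, 25.9% to 31.0% of chr1 peaks were promoter peaks by this distance, and 35.1% to 41.0% of peaks elsewhere. Chr1 has few start sites for its length, so dividing by them raises the distal ratio. It held 9.75% (DIFF replicate 1) to 12.5% (PROLIF replicate 2) of distal peaks, beside 7.94% of autosomal length. Of promoter peaks it held 7.34% (DIFF replicate 1) to 8.12% (PROLIF replicate 2), beside 6.35% of start sites.

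It was also larger among weak peaks. When each list was cut into quintiles by −log10 p, chr1 held 10.9%, 14.8% and 12.8% of the weakest quintile in PROLIF replicates 1, 2 and 4 and 10.4%, 12.2% and 14.5% in DIFF replicates 1, 2 and 4. In the strongest quintile it held 8.90%, 9.93% and 9.57% in the PROLIF libraries and 8.01%, 9.01% and 8.53% in the DIFF libraries. The strongest quintile was lower than the weakest in 6 of 6 libraries and was above the chr1 share of start sites (6.35%).

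**Figure D4:**
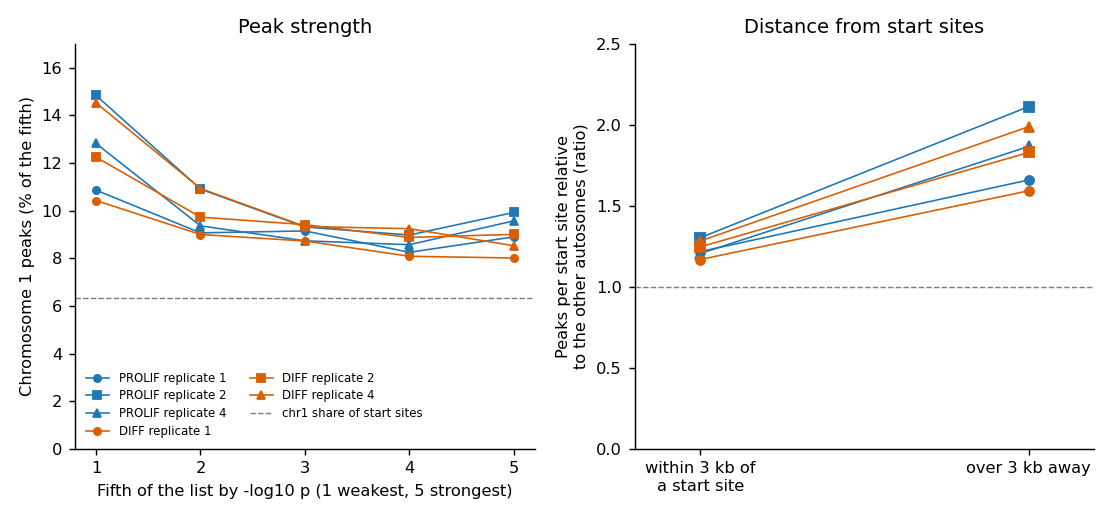
Left, the share of chromosome 1 among the peaks of each quintile of a list by strength (percent), with a dashed line at its share of start sites; right, peaks per start site relative to the other autosomes (ratio) near and far from start sites, 1 line per library. The weakest quintile lies at 10.4% to 14.8% and the strongest at 8.01% to 9.93%, and the distal ratio exceeds the promoter ratio in all 6 libraries.

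Chr1 peaks were narrower and stood on a higher local background. Their median width was 249 to 320 bp, against 297 to 367 bp elsewhere, and it was the smaller in each library. The local background of a peak and its pileup were solved from its fold enrichment and p. The median background of chr1 peaks was 1.07, 1.12 and 1.07 times that of other peaks in PROLIF replicates 1, 2 and 4 and 1.07, 1.17 and 1.04 times in DIFF replicates 1, 2 and 4.

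At most peaks the caller's background is either the level of the whole library or a higher local one. Between 33.2% and 46.0% of chr1 peaks stood at the level of the whole library, beside 45.2% to 58.2% of other peaks. The median pileup of chr1 peaks was 0.879 to 0.960 times that of the others. In regions with a peak in all 6 libraries the ratio of pileups was 1.00, 1.11 and 1.03 in the PROLIF libraries and 0.921, 1.03 and 0.983 in the DIFF libraries, and the ratio of backgrounds was 1.04 to 1.23.

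Superimposed on the broad excess, stretches of chr1 differed between replicates. In 9 of 20 bins (1, 2, 4, 10, 11, 12, 13, 14 and 18) both libraries of replicate 1 held a smaller share of their list than each of the other 4 libraries. Over the 245 autosomal bins 6.53% did so, 16 in number, of which these were 9. The opposite, both libraries of replicate 1 above the others, was seen in 2 chr1 bins (8 and 16), with the same 6.53% over all bins. Replicate 2 was below the others in 0 chr1 bins (3.67% of all) and above them in 1, bin 14 (3.67%). Replicate 4 was below in 2 (4.08%) and above in 0 (4.49%). The pattern was thus most frequent on chr1 for low values of replicate 1.

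Bin 11 (chr1:100000001-110000000) differed most. It held 0.249%, 0.450% and 0.368% of the autosomal peaks in PROLIF replicates 1, 2 and 4 and 0.202%, 0.317% and 0.411% in DIFF replicates 1, 2 and 4. The shares of replicates 2 and 4 were 1.48 to 2.04 times that of replicate 1 of the same state. Bin 11 has 173 start sites and carries the keratinocyte serpin cluster.

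Bin 12 (chr1:110000001-120000000), with Gli2, a transcriptional effector of Hedgehog signalling, held 0.197%, 0.337% and 0.327% in the PROLIF libraries and 0.187%, 0.247% and 0.327% in the DIFF libraries. Bin 13, with the homeobox gene En1 and the chemokine receptor gene Cxcr4, held 0.396%, 0.640% and 0.571% and then 0.380%, 0.543% and 0.611%. In both bins the 2 libraries of replicate 1 were the lowest and the groups did not overlap. Bin 18, with the Fc receptor and SLAM gene clusters, held 0.575%, 0.835% and 0.732% in the PROLIF libraries and 0.517%, 0.710% and 0.681% in the DIFF libraries.

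Outside these stretches the bins were of mixed kind. Bin 15 varied widely, from 0.245% in DIFF replicate 1 to 0.564% in PROLIF replicate 2, without a common order of the replicates, and bins 3, 5 and 17 varied less. Bins 7, 8, 16, 19 and 20 were the closest between libraries. In bin 19 (chr1:180000001-190000000), which carries Parp1, Esrrg and Tgfb2, the shares were 0.553%, 0.544% and 0.541% in the PROLIF libraries and 0.527%, 0.548% and 0.525% in the DIFF libraries. In bins 7, 8, 16, 19 and 20 the shares of replicates 2 and 4 were 0.918 to 1.05 times those of replicate 1, as the plot of bins by replicate shows.

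**Figure D5:**
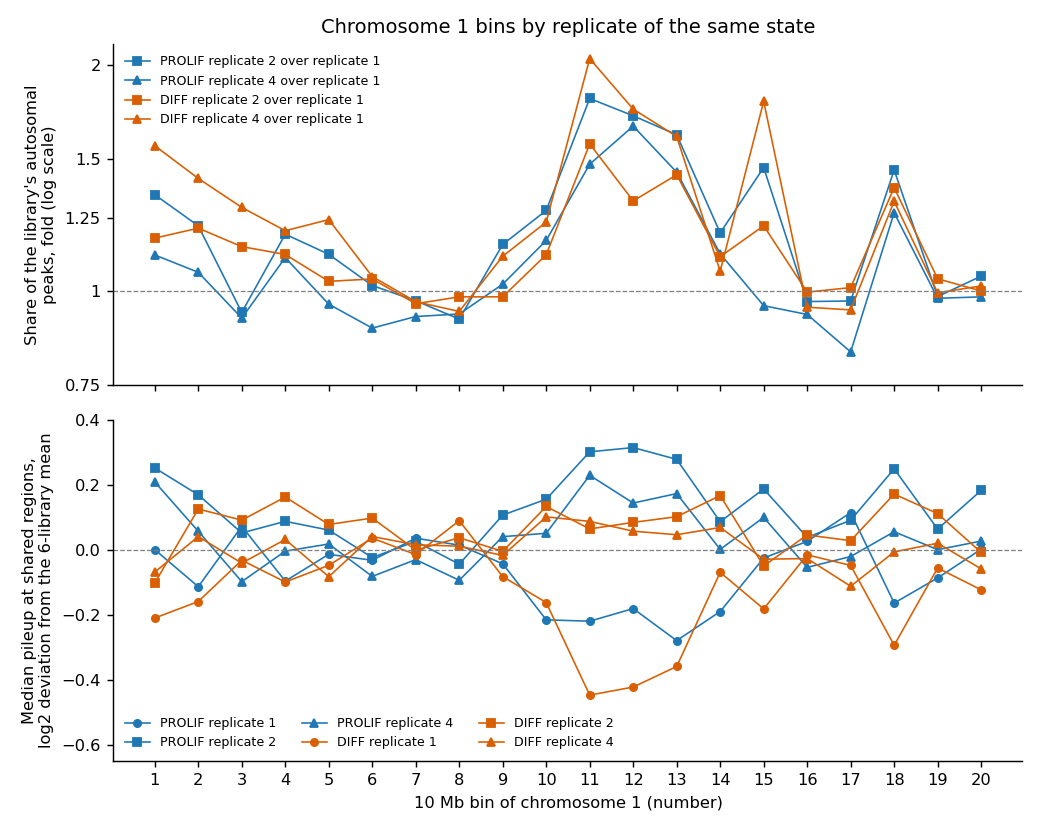
Upper panel, the share of a library's autosomal peaks in each chromosome 1 bin as a fold over replicate 1 of the same state (log scale); lower panel, the median pileup at regions found in all 6 libraries as a log2 deviation from the mean of the 6 libraries. Bins 11, 12 and 13 are raised by 1.32 to 2.04 times in the upper panel, and the 2 libraries of replicate 1 are the lowest there in the lower panel, at -0.18 to -0.45.

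The pileup of regions present in every library was taken as another readout, at the same regions in each library. These regions were chosen by the peak calls, and the reads are those behind the peak counts, so the readout is not independent of them. The pileup was scaled in each library to the regions of the other autosomes, and the median log2 deviation from the 6-library mean was taken per bin. In bin 11, over 95 regions, it was -0.22, 0.30 and 0.23 in PROLIF replicates 1, 2 and 4 and -0.45, 0.06 and 0.09 in DIFF replicates 1, 2 and 4. In bin 13, over 180 regions, it was -0.28, 0.28 and 0.17 and then -0.36, 0.10 and 0.05. In bin 8, over 187 regions, all 6 values lay between -0.09 and 0.09.

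Both libraries of replicate 1 had the lowest pileup in 10 of 20 chr1 bins (2, 4, 9, 10, 11, 12, 13, 14, 18 and 19), beside 11.1% of 253 autosomal bins. In steps of 2.5 Mb with at least 10 such regions, 29 of 73 on chr1 did so, beside 9.17% of 916 over all autosomes. The steps lay in runs. The longest ran from 95 to 110 Mb and from 117.5 to 132.5 Mb, 6 steps each, with replicates 2 and 4 above replicate 1 by 0.27 to 0.69 and by 0.35 to 0.64 on the log2 scale. Further runs lay from 170 to 182.5 Mb (5 steps), 7.5 to 17.5 Mb (4), 85 to 92.5 Mb (3), 30 to 35 Mb (2) and 137.5 to 142.5 Mb (2). Runs were built from steps where replicate 1 was lowest by these same pileups, so the sign of the gap is fixed by that choice.

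Libraries differed more in these stretches than in the rest of the chromosome. In the 9 bins named above, chr1 held 1.40, 1.95 and 1.72 times the peaks per start site of the other autosomes in PROLIF replicates 1, 2 and 4 and 1.36, 1.70 and 1.88 times in the DIFF libraries. In the other 11 bins the values were 1.58, 1.68 and 1.50 and then 1.49, 1.54 and 1.63. Every library was above 1 in both parts. The 9 bins were chosen by these shares, so the gap between replicates in them is fixed by the choice.

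Few regions switched as a whole with the replicate. Of the 13352 merged regions of chr1, 29 had a peak in all libraries but those of replicate 1, 0.217% beside 0.122% over the 116783 autosomal regions. The bins with most of them were 13 and 18, with 6 each. For replicate 2 the number was 25, 0.187% beside 0.391%, and for replicate 4 it was 23, 0.172% beside 0.186%.

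The states were compared to ask whether the chr1 share of peaks differs between them. PROLIF and DIFF differ in mitogens, serum and 1 day in culture, and these cannot be told apart here. The chr1 share of autosomal peaks was 9.96% ± 0.82 (SD, n = 3) in PROLIF and 9.76% ± 0.85 (n = 3) in DIFF. The difference of -0.199 percentage points was less than the SD of either state (exact permutation over libraries, two-sided, p = 0.80, where 0.1 is the smallest p that 3 against 3 allows). Within the libraries of lower input numbers DIFF minus PROLIF was -0.643 percentage points, and within those of higher numbers it was -0.655, each resting on 1 library of a state. Without PROLIF replicate 2 the difference turned to 0.253, and without DIFF replicate 1 to 0.249.

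The promoter share of chr1 peaks was 29.3% ± 1.5 (n = 3) in PROLIF and 28.4% ± 2.4 (n = 3) in DIFF, a difference of -0.946 points (exact permutation p = 0.70). It turned to 0.322 without DIFF replicate 4, the library with the highest background pileup. It was 1.01 when all lists were cut to equal length and 1.96 among the strongest 20000 peaks (exact permutation p = 0.40 and p = 0.20).

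Bin by bin, limma found no chr1 bin past an adjusted p of 0.05 of 20 tested. Over all 254 autosomal bins it called 8 higher in DIFF (3.15%) and 6 lower (2.36%). At an unadjusted p under 0.05 there were 2 of the 20 chr1 bins, beside 67 of all 254. Bin 20, at the end of the chromosome and with Prox1, Plxna2 and Kcnh1, held 0.411% ± 0.014 in PROLIF and 0.372% ± 0.0035 in DIFF, a log2 difference of -0.14 ± 0.040 (SE, limma adjusted p = 0.076). Bin 6, with the Wnt receptor gene Fzd7, held 0.504% ± 0.035 in PROLIF and 0.552% ± 0.013 in DIFF, a log2 difference of 0.13 ± 0.055 (limma adjusted p = 0.17).

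The shares of PROLIF and DIFF did not overlap in bins 6 and 7, which were higher in DIFF, nor in bin 20. Over all bins 17.3% were separated in that way with DIFF higher and 15.4% with DIFF lower. With the replicate number as a block, limma called 2 chr1 bins lower in DIFF, beside 6.3% of all bins, and 0 higher, beside 7.09%. They were bin 11 (log2 -0.22 ± 0.072, adjusted p = 0.033) and bin 15 (log2 -0.44 ± 0.089, adjusted p = 0.000345). The SEs and p-values of limma draw on the variance of all bins and do not rest on the spread within a bin alone. In bin 15 DIFF was below PROLIF of the same number in replicates 1 and 2, with 0.245% against 0.386% and 0.299% against 0.564%, and above it in replicate 4, with 0.438% against 0.369%, and in bin 11 replicate 4 was also higher in DIFF (0.411% against 0.368%), so the replicates did not all go one way in either bin.

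Chr1 regions were found in fewer libraries than regions elsewhere. Of the 13352, 40.8% had a peak in 1 library only and 26.0% in all 6, beside 28.3% and 34.4% of the 103431 regions of the other autosomes. In bin 15, 72 of 800 regions were in all 6, and in bin 14, 309 of 877 (35.2%).

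PROLIF-only regions, with a peak in each PROLIF library and none in DIFF, numbered 196 on chr1, 1.47% of its regions beside 1.77% of all autosomal regions. DIFF-only regions numbered 358, 2.68% beside 3.52%. Chr1 thus held 9.48% of all PROLIF-only and 8.71% of all DIFF-only regions, and 11.4% of all regions. These shares come from lists of unequal length. With the lists cut to an equal length chr1 had 286 PROLIF-only and 290 DIFF-only regions, 9.92% and 8.41% of all such regions, beside 10.4% of all regions. Among the strongest 20000 peaks of each list it had 198 and 90, 12.1% and 6.86% of all such regions, beside 8.89% of all regions, so that its PROLIF-only share then lay above its share of regions.

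Sequence within 100 bp of the summit was compared between chr1 and the rest as a description. The median GC content was 48.3% on chr1 and 50.7% elsewhere, and in regions of all 6 libraries it was 51.7% and 54.7%. AP-1, the motif of FOS and JUN factors, was found in 29.1% of the 196 PROLIF-only regions of chr1 and 27.8% of those elsewhere, beside 6.21% of all chr1 regions and 5.72% of all others. Short NFI motifs were found in 31.6% of the 358 DIFF-only regions and 33.1% of those elsewhere, beside 17.8% and 18.4% of all regions.

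The CTCF core was found in 5.82% of chr1 regions and 8.40% of the others, and in regions of all 6 libraries in 9.92% and 9.53%. SOX letters stood in 30.7% of chr1 regions and 29.0% of the others, and in regions of all 6 libraries in 30.01% and 25.7%. In those shared regions AP-1 was found in 5.74% on chr1 and 4.47% elsewhere. In the 9 bins where replicate 1 was low, 6.22% of 6177 regions held AP-1 and 6.22% the CTCF core, beside 6.20% and 5.48% of the 7175 regions of the other bins. A match is a run of letters and not a bound site.

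Promoter peaks were frequent on chr1. A promoter peak, within 3 kb of a start of the gene, was found in all 6 libraries for 859 of 1208 protein-coding genes (71.1%), beside 65.7% of 20807 over all autosomes. None was found in any library for 167 (13.8%), beside 24.6% elsewhere. Genes of 5 lists on chr1 were then followed, 55 of 82 with a promoter peak in all 6 libraries.

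Of 24 developmental transcription factors 21 had a promoter peak in all 6 libraries. The best promoter peak of Gli2 lay at percentile 92.7 to 97.0 of the lists, En1 at 81.7 to 95.4 and Prox1, a homeobox factor of neurogenesis, at 81.7 to 92.0. The exceptions were Tfap2d with a peak in 5 libraries, Twist2 in 3 and Pax3, a factor of the neural crest and dorsal neural tube, in 2, both of them PROLIF. Where present, the Pax3 peak was weak, at percentiles 8.73 and 14.6.

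All 18 genes of neural growth, guidance and adhesion had promoter peaks in all 6 libraries. Map2 lay at percentile 95.7 to 98.8, the Wnt receptor gene Fzd5 at 97.3 to 98.8 and Plxna2, a semaphorin receptor gene, at 89.7 to 95.6. The lowest medians were those of Igfbp2, which encodes a binding protein of insulin-like growth factors, at 57.6, and Cntn2, an axonal adhesion gene, at 58.7.

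All 13 genes of DNA damage, growth arrest and replication also had promoter peaks in all 6 libraries. The list includes Ercc5, a nuclease of excision repair, Rev1, a translesion polymerase, and Slc19a2, a thiamine transporter, which the study names. Their median percentiles were 99.2, 98.6 and 97.8. Mcm3, a subunit of the replicative helicase, was at 99.7 to 99.9.

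Most genes of other lineages had no promoter peak or had it in some libraries. Of 14 immune genes 2 had promoter peaks in all 6 libraries, Fcgr3 at percentiles 71.3 to 87.3 and Selp at 59.3 to 85.5, and 9 had none. Ptprc, the pan-leukocyte gene in bin 14, had none in any library. Of 13 lens crystallin and keratinocyte genes 1 had peaks in all 6 libraries, the laminin gene Lamb3 at 85.1 to 96.3, and 6 had none. In bin 11, Serpinb2 had a weak peak in 5 libraries (13.3 to 49.9), Serpinb7 and Serpinb13 in 1 each, and Serpinb3a and Serpinb12 in none.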

How the data were processed

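Narrow peak lists of 6 ATAC-seq libraries (3 PROLIF, 3 DIFF; groups and replicate numbers from the labels) were analysed. Per the study's methods, the authors removed adapters (Cutadapt) and poor-quality ends (Trimmomatic), mapped reads to GRCm38 with Bowtie2, handled duplicates with Picard and called peaks per library with MACS2 (no model, false discovery rate 0.05). Versions, any transposase shift and any blacklist are not given in the sources used here, and a blacklist would bear on the mitochondrial-like region. The lists deposited by the authors hold positions, a score, a fold enrichment (a ratio to local background), and −log10 p and q. Read totals were not used, so the background pileup stands for depth.

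Peaks were placed by their midpoint in 10 Mb bins. Bins with at least 5 Mb of called bases were described. A start site is a distinct GENCODE M21 transcript start, where the study used another release. Regions merge peaks that overlap by 1 bp. Background and pileup were solved from fold and p under the caller's Poisson formulas, and pileups came back whole (within 0.02) for 99.99% to 100% of the solved peaks of each list. The strongest peaks, with −log10 p over 250, were left out of this. The solver, the merging and the bin test were tested on simulated data.

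States were compared by two-sided exact permutation, and by limma 3.58.1 (trend) on log2((peaks + 1) over the scaled autosomal total) for bins with a mean of at least 20 peaks, Benjamini-Hochberg over all bins. The moderated test of limma shrinks the variance of each bin towards the trend over all bins. Fold differences on that scale understate changes of low bins. Since both states are said to come from the same cultures, libraries that share a number count as pairs in the blocked fit, though the labels do not tie a number to a culture. Deviations of bin values from the state mean correlated at 0.614, 0.425 and 0.0791 for replicates 1, 2 and 4 over 254 bins, and at -0.0098, 0.322 and -0.062 over the 220 bins outside chromosomes 1 and 10, so the value of replicate 1 rests on those chromosomes. PROLIF replicate 2 correlated more with DIFF replicate 4 (0.525) than with its own number over all bins. Over the 20 chr1 bins the same-number values were 0.880, 0.113 and 0.285 for replicates 1, 2 and 4. There PROLIF replicate 2 correlated at 0.873 with DIFF replicate 4, and PROLIF replicate 4 at 0.506 with DIFF replicate 2. On chr1 the numbers of replicates 2 and 4 thus did not mark the closest libraries, a limit of the blocked calls there.

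Some items that the rule would name are not reported here. Named items were the genes of the 5 lists, the 3 highest and 3 lowest bins, bins past the limma threshold, and the 5 top regions shared or specific to a state, by their lowest percentile over libraries. Bins 6, 9, 11, 12, 14, 18, 19 and 20 were named after their values were seen. The rule, the members and the lists were chosen with earlier results of these data known. Python 3.11.15 and R 4.3.3 were used.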

Additional observations from a re-analysis of the deposited data

Results flagged for a closer look

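Peaks on the 4 unlocalized scaffolds assigned to chromosome 1 were not used in any comparison. The lists held 58, 64 and 59 of them in PROLIF replicates 1, 2 and 4 and 75, 35 and 125 in DIFF replicates 1, 2 and 4. They were singled out because they are signal outside the main measurement. DIFF replicate 4, with the highest background pileup, held the most.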

How the results depend on the processing

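The chr1 ratio stayed above 1 in all alternatives tried. It was 1.78 per protein-coding gene start, 1.26 per Mb, 1.38 against the fit on start sites, 1.41 among the strongest 20000 peaks, 1.84 for peaks over 3 kb from a start site and 1.24 within 3 kb. Leaving out each library gave 1.58 to 1.65. Per Mb, 55% of chr1 bins exceeded the other autosomes in all libraries (35.1% of the other bins), and per start site leaving out each library gave 95% to 100%. For the chr1 share, DIFF minus PROLIF ranged from -0.599 to 0.253 points over libraries left out, and reversed to 0.253 and 0.249 as given in the report. For the promoter share it ranged from -2.01 to 0.322, and reversed to 1.01 with lists of equal length and 1.96 among the strongest 20000 peaks. With the replicate block (sign flips over pairs, smallest p 0.25) these differences had p = 0.75 and p = 1 by exact permutation. State-only regions of chr1 numbered 233 to 419 (PROLIF-only) and 378 to 714 (DIFF-only) with a library left out. PROLIF-only regions were 301, 419 and 326 without PROLIF replicate 2, PROLIF replicate 4 or DIFF replicate 4, and DIFF-only regions were 567 and 714 without PROLIF replicate 1 or DIFF replicate 1. DIFF-only regions numbered 90 among the strongest 20000 peaks. The replicate block, which asks for a difference in 2 of 3 pairs, gave 793 and 1225, 10.9% and 9.34% of all such regions beside 11.4% of all regions. The chr1 background ratio was 1.04 for distal peaks and 1.04 as a mean without the strongest 1%, and the pileup ratio was 0.974 for distal peaks and 1.01 in regions of all 6 libraries. The background ratio was 1.07 to 1.10 and the pileup ratio 0.934 to 0.951 with a library left out. Over all autosomes limma called 14 bins, 34 with the replicate block, 5 in bins of 5 Mb, 6 in bins of 20 Mb, 86 among the strongest 20000 peaks, 33 with lists of equal length and 0 to 15 with a library left out (9 without PROLIF replicate 4). It called 0 without PROLIF replicate 2, DIFF replicate 1, DIFF replicate 2 or DIFF replicate 4, where 43 to 59 bins had an unadjusted p under 0.05. On chr1 it called 0 bins, 2 with the replicate block and 4 among the strongest 20000 peaks (bins 1, 11, 17 and 19, lower in DIFF), and 0 with a library left out. The cause of these changes was not tested. A missing peak is signal under the caller's threshold, and 3 libraries per state cannot give an exact p under 0.1.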
